A study of Mus musculus with 4 samples.

Results

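The genes described here are 36 regulators of cell death and growth arrest: 18 genes of the p53 pathway, 11 genes of the Bcl2 family and 7 genes of the caspase group (caspases, their activator Apaf1 and their inhibitors). They were chosen by gene symbol and measured in mouse embryonic stem (ES) cells, cultured cells from the early embryo that renew themselves and can give rise to every tissue. Of the 36, 34 had at least 1 probe set with their symbol alone in the array annotation, and all 34 passed the filter on dim probe sets, out of 13023 genes that did. Trp53, the gene of p53 itself, and Bax, a killer protein of the Bcl2 family, had no probe set so named and were not analysed here.

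The study compared 2 Klf5 knockout (KO) clones with 2 wild-type (WT) clones, with 1 Affymetrix array for each clone. Klf5 is a zinc finger transcription factor of ES cells. Both genotypes were grown in ES medium with 15% fetal bovine serum and LIF, a cytokine that holds mouse ES cells in their undifferentiated state, and the stated search was for genes lower in KO cells. The sources used here do not give the strain of the cells, how Klf5 was disrupted, or whether the clones of a genotype came from separate targeting events, so p-values measure the spread between these clones only.

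Klf5 itself read 34.8 and 49.9 in KO clones 1 and 2, against 2399 and 1782 in WT clones 1 and 2, so the arrays separated as labelled on that probe set. The other tested Klf5 probe set read 82.6 and 61.0 in KO clones against 102 and 88.6 in WT clones, with a log2 difference of -0.35 (limma, adjusted p = 0.357) that did not pass. Of 12 ES cell markers, all were well above the filter intensity of 13.05 in every clone (lowest values 258 in KO and 653 in WT). On the probe set chosen for each gene, 1, Tcl1, was lower in KO by the test used here. Both KO clones read below both WT clones for 7 (58.3%, against 29.7% of all genes) and above them for 1 (8.33%, against 25.9%). Another Lin28a probe set also passed, at 360 and 535 in KO clones against 1061 and 1013 in WT clones (-1.21, limma, adjusted p = 0.0209). The chosen Lin28a probe set had -0.19. Of 30 fibroblast marker symbols, 29 had a named probe set and 28 passed the filter. Each of these 28 had both KO clones above both WT clones, beside 25.9% of all genes. The test was passed by 24, beside 4.28% of all genes tested. Lum, the marker under the filter, read 7.58 and 8.04 in KO clones against 3.73 and 12.4 in WT clones, with an overlap. Col6a1 and Dcn were under the filter intensity in both WT clones and passed the filter through their KO values, so the count of 28 is not one over the whole list. The same limit holds for the median difference of the 28 given below. The marker list was also chosen with earlier results of these data known. The summed intensity of the 28 was 30083 and 31585 in KO clones against 11522 and 8440 in WT clones, and none was listed at 0. In bulk RNA a change in the number of cells of a kind cannot be told apart from a change in RNA per cell. Whether the higher fibroblast markers came from fibroblasts or from other cells, and their part in the results below, was not tested. The deposited arrays differed in trimmed mean intensity from 137 to 226, with WT clone 1 brightest, and were quantile normalized. For the beta-actin control probe sets, log2 of the 3′ over the 5′ intensity was 0.75 and 0.52 in KO clones and 0.48 and 0.44 in WT clones, and for those of Gapdh it was -0.33 and -0.29 in KO clones and -0.32 and -0.32 in WT clones.

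The p53 protein is a transcription factor that is kept low by the ubiquitin ligase Mdm2 and accumulates after DNA damage, when it switches on genes for growth arrest, repair and death. Mouse ES cells are known for abundant p53 and for dying readily by apoptosis. In the mitochondrial route, proteins of the Bcl2 family decide whether cytochrome c leaves the mitochondria, Apaf1 then assembles with Casp9, and executioner caspases cut the cell's proteins. In the other route, ligands of surface death receptors such as Fas activate Casp8 directly.

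The promoters of 3 genes are shown because 2 of them (Fas and Ccng1) are the members with a probe set past the test and the third, Cdkn1a, is the p53 target outside the set with the largest difference. Each line holds the 250 bases before an annotated start (RefSeq, GRCm38.p6), 5′ to 3′ on the gene's strand. Capitals mark exact matches to the p53 consensus decamer and to the GC box GGGCGG on either strand. The decamer is RRRCWWGYYY (R is A or G, W is A or T, Y is C or T), and a match had to hold at every base. The array files name no genome build, so these positions belong to the sequence table and not to the probes. The Fas window is chr19:34290409-34290658 on the plus strand, the Ccng1 window is chr11:40755287-40755536 on the minus strand, and the Cdkn1a window, at the more upstream of its 2 annotated starts, is chr17:29090729-29090978 on the plus strand.
Fas: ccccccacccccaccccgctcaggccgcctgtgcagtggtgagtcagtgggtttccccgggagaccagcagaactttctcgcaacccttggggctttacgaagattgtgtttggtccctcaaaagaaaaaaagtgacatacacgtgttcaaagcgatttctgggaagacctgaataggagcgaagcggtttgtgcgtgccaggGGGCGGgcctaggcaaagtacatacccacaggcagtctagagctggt
Ccng1: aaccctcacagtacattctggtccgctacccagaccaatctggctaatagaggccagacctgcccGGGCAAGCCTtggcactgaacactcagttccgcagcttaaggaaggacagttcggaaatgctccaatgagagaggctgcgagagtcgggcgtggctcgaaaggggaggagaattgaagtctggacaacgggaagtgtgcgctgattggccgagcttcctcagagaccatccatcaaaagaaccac
Cdkn1a: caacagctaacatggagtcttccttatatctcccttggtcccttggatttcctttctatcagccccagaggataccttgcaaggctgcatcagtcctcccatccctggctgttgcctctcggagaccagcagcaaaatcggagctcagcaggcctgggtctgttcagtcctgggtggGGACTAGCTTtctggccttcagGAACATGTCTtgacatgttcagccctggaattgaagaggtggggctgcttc
The Fas window held 1 GC box, 47 bases before the start, and no decamer. The Ccng1 window held 1 exact decamer, GGGCAAGCCT, starting 185 bases before the start, and no GC box. The letters agacctgccc directly before it depart from the decamer at 1 base and were not counted. The count therefore does not show whether Ccng1 has a paired p53 site there. The Cdkn1a window held 2 decamers, GGACTAGCTT and GAACATGTCT, starting 73 and 51 bases before the start, and no GC box. The window at the other Cdkn1a start, chr17:29093519-29093768 on the plus strand, held no decamer and 2 GC boxes, 104 and 46 bases before that start. A pair of decamers with a spacer of at most 13 bases was found in 21 of 32851 promoter windows (0.0639%), and in 0 of the 44 windows of the 31 members that had one. The printed window of Cdkn1a, which is not a member, is among the 21, for the 2 exact matches named above. The letters tgacatgttc, which follow GAACATGTCT directly, depart from the decamer at 1 base and were not counted. A single decamer was found in 9 of these 44 windows (20.5%), against 7.13% of all windows. The members with one were Bmf, Gadd45a, Bax, Aen, Ei24, Sesn1, Mdm2, Ccng1 and Trp53. GGGCGG, which overlaps neither decamer in the printed windows, was found in 30 of the 44 member windows (68.2%) and in 32.7% of all windows. These matches are descriptions of the letters in the windows. Sites that lie elsewhere, or that depart from the decamer at any base, would not be counted.

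Among the p53 pathway genes, the death receptor gene Fas was higher in Klf5 KO cells, and no other passed the test on its representative probe set. Of the 34 measured members, 1 rose (Fas), 0 fell and 33 did not pass, or 2.94% called, against 4.28% of all genes tested (2.94% higher and 1.34% lower). The share of members called was thus near that of all genes. At an unadjusted p under 0.05 there were 9 members (6 higher and 3 lower), or 26.5%, against 21.5% of all genes. A p-value that misses the threshold does not show that a gene did not differ, and the intervals below give the differences that 2 clones in each group could not exclude.

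Fas, a cell surface receptor that triggers apoptosis when its ligand binds, had a normalized intensity of 67.4 and 48.7 in KO clones 1 and 2, against 25.9 and 16.9 in WT clones 1 and 2. Both KO clones read above both WT clones, and the WT values were close to the filter intensity of 13.05. On the scale of log2(intensity + 16), which understates the change of dim genes, Fas rose by 0.98 ± 0.21 (moderated SE, n = 2 arrays in each group throughout), a 1.98-fold difference (limma, adjusted p = 0.041). The call was lost with each of the 4 arrays left out in turn, with log2 differences from 0.80 without KO clone 1 to 1.17 without KO clone 2 and adjusted p from 0.0515 to 0.232. It was also lost with a pseudocount of 1 (1.41, adjusted p = 0.127), with no filter (0.15) and in the values as deposited (0.86, adjusted p = 0.364). Its only probe set is the one described, and the 28 tested fibroblast markers were higher by a median of 2.01 in the same comparison. Fibroblasts also express Fas, but whether they bear on the Fas difference was not tested.

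Ccng1 (cyclin G1, a p53 target that recruits a phosphatase to Mdm2) was bright in all clones, at 5187 and 5092 in KO clones 1 and 2 against 3412 and 3196 in WT clones 1 and 2. The groups did not overlap, and the clones of a genotype lay close together. The difference was 0.64 (95% confidence interval 0.23 to 1.04, adjusted p = 0.0908) on the representative probe set. Its other probe sets had 0.63 (adjusted p = 0.114) and 0.84 ± 0.19 (adjusted p = 0.0473), so 1 of 3 passed. That probe set read 2461 and 2046 in KO clones and 1305 and 1186 in WT clones, again with no overlap, and its adjusted p was 0.0786 to 0.234 with any 1 array left out. All 3 probe sets of Ccng1 placed both KO clones above both WT clones.

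Among the other genes of the p53 feedback loop, Mdm2 read 1418 and 1310 in KO clones against 1119 and 1051 in WT clones, with a log2 difference of 0.32 (-0.08 to 0.73, adjusted p = 0.343). Its other tested probe set had 0.45 (adjusted p = 0.233). Neither passed, although both KO clones were above both WT clones on each. Trp53inp1, a stress protein that enhances p53 activity, read 3611 and 3597 in KO clones against 2995 and 2403 in WT clones, a difference of 0.42 (-0.01 to 0.86). Phlda3, an inhibitor of AKT signalling, had 676 and 594 in KO clones against 547 and 453 in WT clones, and its log2 difference of 0.34 (-0.10 to 0.77) did not pass. These differences depended on the scaling. In the values as deposited and after centring each array on its median, scalings under which the median of all genes was -0.23 and -0.19, Mdm2 had 0.0026 and 0.040, Phlda3 had 0.00094 and 0.038, and Trp53inp1 had 0.20 and 0.24.

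Ei24, an endoplasmic reticulum protein first found as an etoposide-induced p53 target, read 1618 and 1368 in KO clones against 1036 and 903 in WT clones. Each KO clone was above each WT clone, and the log2 difference was 0.61 ± 0.19 (adjusted p = 0.12). It passed with a pseudocount of 64 (adjusted p = 0.0287) and with a variance trend (0.0304), but its difference was 0.29 (adjusted p = 0.866) in the values as deposited and 0.33 (0.508) after centring. Zmat3, a zinc finger RNA-binding protein, ran the other way, at 427 and 512 in KO clones against 645 and 653 in WT clones, with -0.46 (-0.88 to -0.04, adjusted p = 0.21). Sesn2, a sestrin that restrains mTORC1 signalling under stress, read 325 and 373 in KO clones against 449 and 509 in WT clones, with -0.44 (-0.86 to -0.02, adjusted p = 0.229), and its other probe set had -0.27. In the values as deposited and after centring, these negative differences were larger, at -0.80 and -0.77 for Zmat3 and -0.76 and -0.73 for Sesn2. The related sestrin Sesn1 had positive differences on all 3 tested probe sets, from 0.24 on the representative one to 0.67 (adjusted p = 0.223). The signs thus differed between the sestrin genes, but neither passed and the difference between them was not tested.

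The remaining p53 targets had differences from -0.17 to 0.23. Bbc3 (Puma), a BH3-only protein that binds the survival members of the Bcl2 family, read 210 and 268 in KO clones against 245 and 296 in WT clones, so the groups overlapped. Pmaip1 (Noxa), another BH3-only protein, read 365 and 373 in KO clones against 459 and 301 in WT clones, and both KO values lay between the WT values. The log2 differences were -0.17 (-0.63 to 0.29) for Bbc3 and -0.01 (-0.52 to 0.50) for Pmaip1. Plk2, a polo-like kinase, had 0.02, the antiproliferative gene Btg2 0.15, and the exonuclease gene Aen -0.07. Gadd45a, a growth arrest and DNA damage protein, had 0.20, and Tnfrsf10b, a receptor for the death ligand TRAIL, had 0.23. For both of these the KO clones lay above the WT clones without overlap, and neither passed. Sesn1, Gadd45a, Btg2 and Plk2 had negative differences in the values as deposited and after centring on the median.

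**Figure D1:**
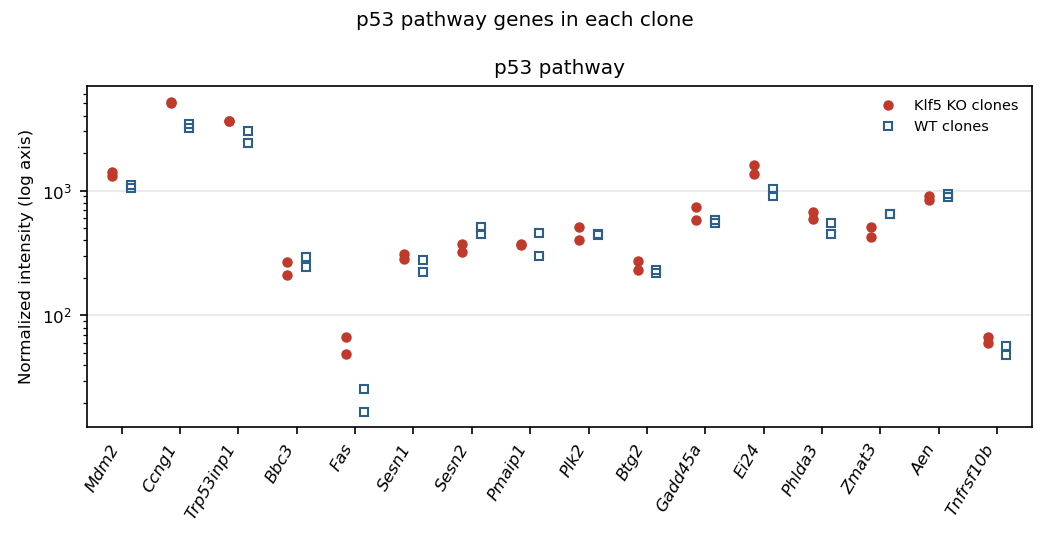
Normalized intensity (log axis) of the 16 measured p53 pathway genes in the 2 Klf5 KO clones (filled circles) and the 2 WT clones (open squares), 1 representative probe set for each gene. Fas and Ccng1 show a clear gap between the genotypes, and Pmaip1 and Plk2 overlap. Heights of different genes are not comparable.

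Of the 16 p53 pathway genes, 9 had each KO clone above each WT clone, 2 had each KO clone below each WT clone, and in 5 the groups overlapped. Over all genes tested, 25.9% were higher and 29.7% lower in this way. The median log2 difference of the 16 was 0.22, beside -0.02 over all genes, and set against the WT mean, KO clone 1 had 0.24 and KO clone 2 had 0.22. This median turned negative in the values as deposited (-0.09) and after centring each array on its median (-0.05). Those scalings also moved the median of all genes, to -0.23 and -0.19. Relative to all genes, the p53 median was 0.24 after quantile normalization and 0.14 with either of the other scalings. In the values as deposited, 2 of the 16 were higher and 3 lower in both KO clones, beside 8.36% and 30.5% of all genes. After centring, 3 were higher and 4 lower, beside 13.2% and 41.6%. The count of 9 therefore depends on the scaling, and no test of the group was made.

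**Figure D2:**
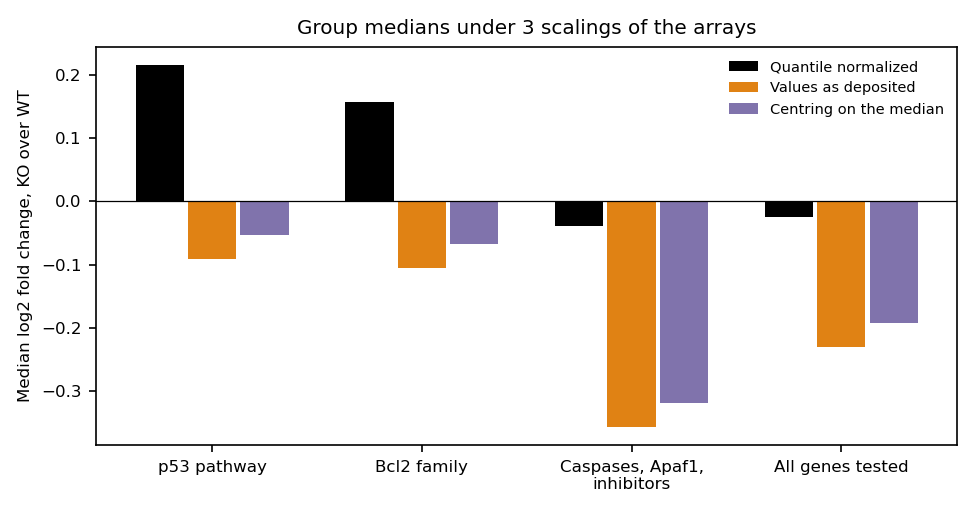
Median log2 fold change, KO over WT, of the 3 groups of members and of all genes tested (bars from 0), under quantile normalization, in the values as deposited, and after centring each array on its median. The p53 pathway bar is 0.22 under the first and below 0 under the others, and the bar of all genes moves down with it.

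Of the 11 Bcl2 family genes, 0 rose, 0 fell and 11 did not pass (limma), against 4.28% of all genes called. At an unadjusted p under 0.05 there were 2, Bcl2l11 and Bad, or 18.2%, against 21.5% of all genes. The largest difference was that of Bcl2l11 (Bim), a BH3-only protein that promotes death by binding the survival members. It read 427 and 410 in KO clones 1 and 2, against 631 and 849 in WT clones 1 and 2. Both KO clones were below both WT clones and close to each other. The log2 difference was -0.78 ± 0.20 (95% confidence interval -1.24 to -0.32, adjusted p = 0.0731). All 5 Bcl2l11 probe sets had negative differences, from -0.78 to -0.24, 4 of them with both KO clones below both WT clones. Its representative probe set passed with a pseudocount of 64 (adjusted p = 0.0169), the stricter filter (0.0364), centring on the median (0.00243) and a variance trend (0.0189). It did not pass with a pseudocount of 1 (adjusted p = 0.196), no filter (0.189), the values as deposited (0.132) or clone number as a block (0.0563). Nor did the gene pass after its probe sets were averaged. With 1 array left out, the difference on the representative probe set was -0.99 to -0.57.

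Bad, a BH3-only protein held inactive by AKT phosphorylation, read 227 and 183 in KO clones against 92.2 and 154 in WT clones. Both KO clones were above both WT clones, but the WT clones lay far apart. The difference was 0.70 (0.14 to 1.25, adjusted p = 0.157), and its other probe set, whose groups overlapped, had 0.13. The difference of the first was 0.37 (adjusted p = 0.545) without WT clone 1 and 1.02 (0.0817) without WT clone 2. Of the other killers, Bak1, which forms pores in the mitochondrial membrane, had -0.15, Bid, which links Casp8 to the mitochondria, -0.13, and Bok, a relative of Bak1, 0.16, a value that was negative in the values as deposited and after centring. Bik, a BH3-only protein, read 49.5 and 55.2 in KO clones against 27.7 and 51.7 in WT clones, with an overlap. Its 3 probe sets had 0.33, 0.36 and 0.53, and none passed.

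Bmf, a BH3-only protein tied to the cytoskeleton, showed how probe sets of a gene can disagree. Its representative probe set read 123 and 126 in KO clones against 127 and 128 in WT clones, a difference of -0.03 (-0.43 to 0.37). A dimmer probe set of Bmf (suffix _x_at, which marks probes that can match other transcripts) read 60.6 and 57.4 in KO clones against 20.5 and 40.1 in WT clones, with 0.73 (adjusted p = 0.125). Neither passed.

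Among the survival genes, Mcl1, on which ES cells are known to depend, read 6341 and 4999 in KO clones against 4376 and 5238 in WT clones. The groups overlapped, and the difference was 0.23 (-0.23 to 0.69). Its 6 probe sets ran from -0.01 to 0.31. Bcl2l1 (Bcl-xL) read 169 and 159 in KO clones against 167 and 218 in WT clones, with -0.20 (-0.65 to 0.24) and negative differences on all 3 tested probe sets. Bcl2l2 (Bcl-w) had 0.21, with -0.11 and -0.36 on its dimmer probe sets. Bcl2 itself was dim. Of its 5 probe sets, 1 passed the filter, at 18.8 and 24.2 in KO clones against 9.05 and 18.4 in WT clones, and its difference of 0.35 (-0.13 to 0.83) rests on values near the filter intensity. The median of the 11 genes was 0.16, and set against the WT mean, KO clone 1 had 0.09 and KO clone 2 had 0.06. It was -0.11 in the values as deposited and -0.07 after centring, and relative to all genes it was 0.18, 0.12 and 0.12 under the 3 scalings. In this family 4 genes read higher (36.4%, against 25.9% of all genes) and 3 lower (27.3%, against 29.7%) in both KO clones, and 4 overlapped.

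Of the 7 genes of the caspase group, 0 rose, 0 fell and 7 did not pass (limma), against 4.28% of all genes called. At an unadjusted p under 0.05 there were 2, Casp8 and Casp6, or 28.6%, against 21.5% of all genes. Casp8, the initiator caspase recruited to Fas, read 70.7 and 70.4 in KO clones 1 and 2, against 40.2 and 35.5 in WT clones 1 and 2. The clones of each genotype lay close together and the groups were well apart. The log2 difference was 0.69 ± 0.18 (0.28 to 1.09, adjusted p = 0.0739). It passed with the stricter filter (adjusted p = 0.0359) and in the fit on the mean of each gene's probe sets (0.027). Casp8 has 1 probe set, so its values were unchanged in that fit, which does not compare probe sets. It did not pass with a pseudocount of 1 (adjusted p = 0.133), with no filter (0.159), in the values as deposited (0.658) or after centring (0.162). Casp6, an executioner caspase, read 191 and 202 in KO clones against 128 and 126 in WT clones, likewise with no overlap. Its difference was 0.57 ± 0.18 (0.17 to 0.97, adjusted p = 0.12), and it was 0.31 in the values as deposited and 0.35 after centring. Casp8 and Casp6 are expressed in many cell types, fibroblasts among them, and the 28 tested fibroblast markers were higher by a median of 2.01. Whether fibroblasts bear on the Casp8 and Casp6 differences was not tested.

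Casp9 and Apaf1 had negative differences that did not pass. Casp9, the initiator caspase of the mitochondrial route, read 37.9 and 32.9 in KO clones against 52.8 and 44.3 in WT clones, with -0.33 (-0.74 to 0.09), and -0.56 (adjusted p = 0.282) on its other tested probe set. Its activator Apaf1 read 307 and 326 in KO clones against 394 and 343 in WT clones, with -0.21 (-0.62 to 0.21), and -0.45 (adjusted p = 0.211) on its other probe set. Both KO clones lay below both WT clones on the representative probe set of Casp9 and on both probe sets of Apaf1, while the other Casp9 probe set overlapped, at 9.58 and 27.2 in KO clones against 40.7 and 26.5 in WT clones. The caspase inhibitor Xiap read 700 and 635 in KO clones against 970 and 688 in WT clones, so the groups overlapped by a narrow margin, with -0.29 (-0.77 to 0.20). Of its 6 tested probe sets 5 had negative differences. Casp2, an initiator caspase, had 0.08 (negative in the values as deposited and after centring), and Birc2 (cIAP1), a ubiquitin ligase of receptor signalling, had -0.04. The group's median was -0.04, but set against the WT mean, KO clone 1 had 0.19 and KO clone 2 had -0.16, so the KO clones differed in sign.

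**Figure D3:**
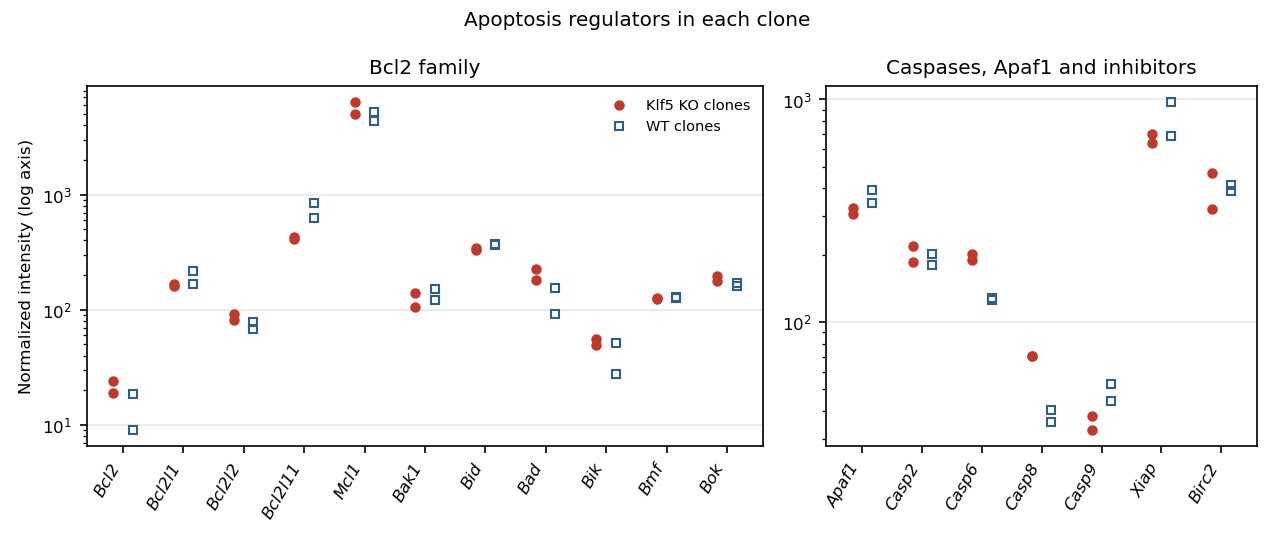
Normalized intensity (log axis) of the 11 Bcl2 family genes and the 7 genes of the caspase group in the 2 Klf5 KO clones (filled circles) and the 2 WT clones (open squares). Bcl2l11 and Casp9 lie lower and Casp8, Casp6 and Bad higher in both KO clones, while Mcl1, Bak1 and Birc2 overlap.

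**Figure D4:**
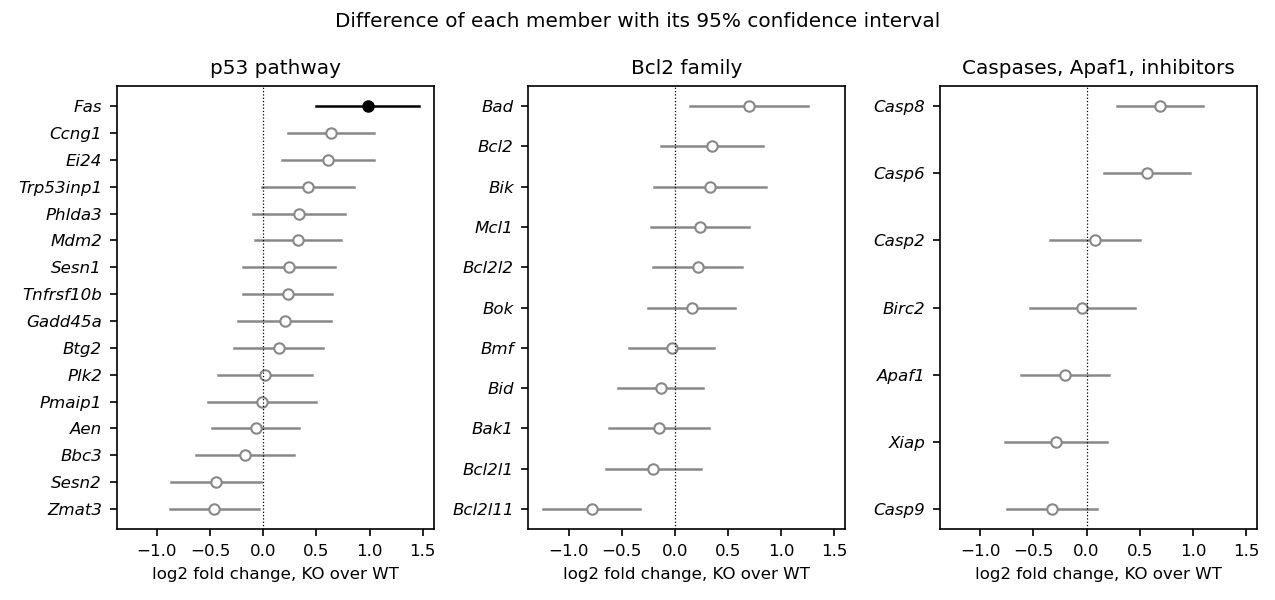
Log2 fold change, KO over WT, of the 34 measured members with 95% confidence intervals from limma (n = 2 arrays in each group). The filled circle marks the gene with an adjusted p under 0.05. Fas, at 0.98, is the only filled circle, and Bcl2l11, at -0.78, lies furthest to the left.

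The 34 members had 86 probe sets, of which 74 passed the filter and 2 passed the test, those of Fas and Ccng1 described above. That was 2.70% of the 74, against 3.69% of all 27022 probe sets tested. Of the 20 members with more than 1 tested probe set, 12 had differences of one sign on all of them and 8 had both signs. Ccng1, Sesn1, Bik and Bcl2l11, each with at least 3 tested probe sets, were among the 12, and Mcl1, Bmf, Xiap and Aen were among the 8.

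**Figure D5:**
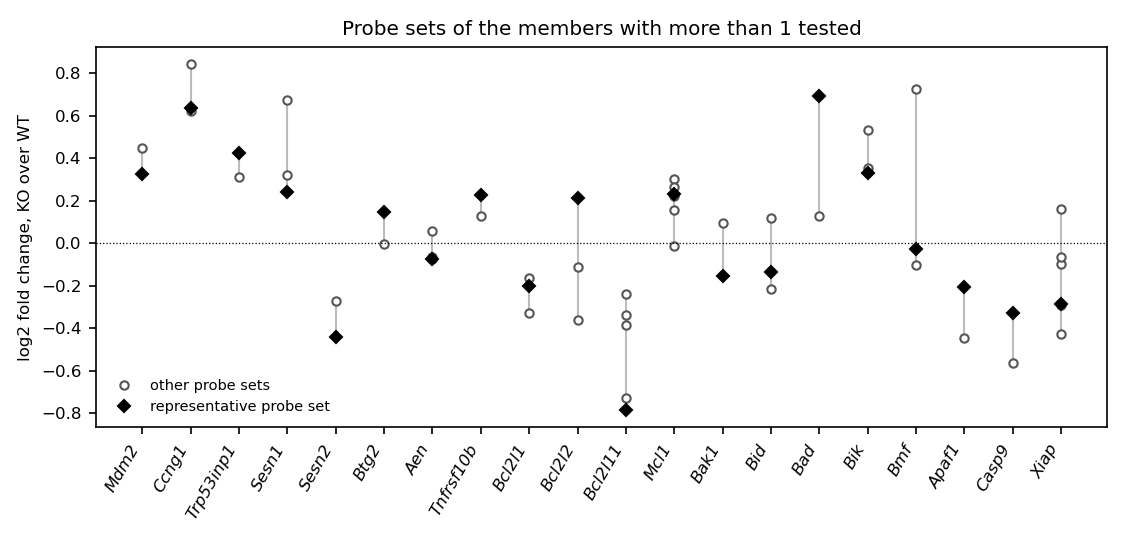
Log2 fold change, KO over WT, of every tested probe set of the 20 members with more than 1. Black diamonds are the representative probe sets and open circles the others. The Ccng1 and Bcl2l11 probe sets lie on one side of 0, and those of Bmf and Xiap on both.

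A wider list of other p53 pathway and apoptosis genes was read from the same fit. Of 76 symbols, 68 had a named probe set and 64 passed the filter. Of these, 2 rose (Cdkn1a and Cflar), 1 fell (Hrk) and 61 did not pass, or 4.69% called, against 4.28% of all genes tested. Hrk entered this count through its WT values alone, and its other probe set had the opposite sign, as described below. The median log2 difference of the 64 genes was 0.05. In all, 22 of the 64 read higher in both KO clones (34.4%, against 25.9% of all genes) and 16 read lower (25%, against 29.7%).

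Cdkn1a encodes p21, the cyclin-dependent kinase inhibitor through which p53 arrests the cell cycle, and is also controlled by other factors. Its representative probe set read 1139 and 1205 in KO clones 1 and 2, against 432 and 382 in WT clones 1 and 2. Both KO clones were far above both WT clones. Cdkn1a rose by 1.49 ± 0.18 (2.81-fold, adjusted p = 0.00296) there, and by 2.38 ± 0.20 (adjusted p = 0.0005) on its other probe set. The representative probe set missed the threshold with a pseudocount of 1 (adjusted p = 0.0534) and in the values as deposited (0.105), while the other passed under all 12 alternatives run on single probe sets. With any 1 array left out, the representative probe set had 1.41 to 1.58 and passed. Its log2 difference was larger than that of any measured member. The 16 p53 pathway members had -0.46 to 0.98, 11 of them positive and 5 negative, and Fas alone passed on its representative probe set. Whether Cdkn1a differed from these genes was not tested, and fibroblast markers were higher in the same arrays.

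Cflar (c-FLIP), an inactive relative of Casp8 that blocks its activation at death receptors, read 93.4 and 91.1 in KO clones against 44.5 and 20.4 in WT clones. It rose by 1.21 ± 0.25 (2.31-fold, adjusted p = 0.0339). Another probe set of Cflar also passed, with 1.15 (limma, adjusted p = 0.0293), while others had 0.23 and -0.24 and did not. That with -0.24 read 38.7 and 39.6 in KO clones against 54.4 and 44.4 in WT clones, so both KO clones were lower there. Without WT clone 2 the first had 0.84 (adjusted p = 0.136), and it also failed without either KO clone. Hrk (Harakiri), a BH3-only protein best known from neurons, read 8.11 and 11.3 in KO clones, both below the 13.05 at which the filter was set, against 30.0 and 35.2 in WT clones. The probe set was tested only because of its WT values, so the size of the difference is not measured here. The fit called it lower (limma, adjusted p = 0.0306), and the call was lost whichever array was left out, at adjusted p values of 0.0759 to 0.175. Its other, dimmer probe set had a log2 difference of 0.60, of the opposite sign (limma, adjusted p = 0.125). That probe set read 12.4 and 7.39 in WT clones 1 and 2, both below 13.05, so it was tested only because of its KO values. The direction for Hrk thus rests on the probe set chosen, and neither was above the filter intensity in both genotypes. Mdm4, the partner of Mdm2 in holding p53 down, had -0.02 (-0.48 to 0.45).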

How the data were processed

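Total RNA of 4 ES cell clones (RNeasy columns, biotin label) was hybridised to 1 Affymetrix array each, per the labels' protocols. The deposited values are linear intensities, 1 for each of 45101 probe sets and array (64 of them controls). The sources used here do not say how the authors summarised, background-corrected and scaled them. Detection calls were not used. Samples were grouped by their titles.

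The arrays were quantile normalized (limma 3.58.1, R 4.3.3), and log2(intensity + 16) was taken. Probe sets whose mean log2 value fell below the 40th percentile (intensity 13.05) were removed, which left 27022. KO was compared with WT by limma's moderated linear model (two-sided, 2 residual degrees of freedom and 6.87 from the prior), with Benjamini-Hochberg adjustment over all kept probe sets and a threshold of 0.05. The number of arrays limits the precision. A shift shared by most probe sets would not be seen.

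Probe sets were named from the platform annotation (34958 rows with 1 symbol, 932 with several, 9160 non-control rows with none), and the gene IDs of the 34 measured members matched the reference gene table. Each gene is represented by its kept probe set of highest mean, one ending in _x_at last. Genes named are all members, Klf5, the wider-list genes past the threshold, Cdkn1a and Mdm4, and the cell type markers. The members and lists were chosen with earlier results of these data known. Alternatives were other pseudocounts, filters, scalings and variance priors, the clone number as a block, leaving out each array, and averaging the probe sets of each gene.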

Additional observations from a re-analysis of the deposited data

How the results depend on the processing

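With 2 clones in each group, few results are stable. The count of probe sets past the threshold, 996, was 189 with a pseudocount of 1, 2060 with one of 64, 190 with no filter, 332 as deposited, 2058 after median centring and 1955 with a variance trend, and 211 to 594 with 1 array left out. The count of members, 1 (Fas), was 0 with a pseudocount of 1, with no filter and in the values as deposited, 5 with a pseudocount of 64 (Ccng1, Fas, Ei24, Bcl2l11 and Casp6), 3 with the filter at the 60th percentile (Ccng1, Bcl2l11 and Casp8), 2 after centring (Fas and Bcl2l11), 4 with a variance trend (Ccng1, Fas, Ei24 and Bcl2l11), 3 after averaging each gene's probe sets (Ccng1, Fas and Casp8), and 0 with any 1 array left out. At that filter Fas was no longer tested. The count of wider-list genes, 3, was 0 with a pseudocount of 1 and in the values as deposited, 7 with a pseudocount of 64, 1 with no filter, 6 with the filter at the 60th percentile, 8 with a variance trend, and 1 to 2 with 1 array left out.

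The p53 median, 0.22, was 0.16 with a pseudocount of 64, -0.091 in the values as deposited and -0.054 after centring, and 0.15 to 0.24 with 1 array left out. The Bcl2 family median, 0.16, was 0.065 with the filter at the 60th percentile, -0.11 in the values as deposited and -0.068 after centring, and 0.014 to 0.12 with 1 array left out. The caspase group median, -0.04, was -0.36 in the values as deposited and -0.32 after centring, and -0.16 to 0.19 with 1 array left out.

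Fas, the only member that passed, kept its sign wherever it was tested, although its call was often lost. Signs turned for some of the members that did not pass. In the values as deposited and after centring they were -0.049 and -0.012 for Sesn1, -0.31 and -0.28 for Plk2, -0.13 and -0.10 for Btg2, -0.14 and -0.11 for Gadd45a, -0.11 and -0.068 for Bok, and -0.20 and -0.16 for Casp2. After averaging each gene's probe sets Bcl2l2 had -0.085 and Bmf 0.20. With 1 array left out, the signs of 5 turned, with Pmaip1 from -0.30 to 0.28, Plk2 from -0.15 to 0.18, Bak1 from -0.33 to 0.031, Casp2 from -0.034 to 0.19 and Birc2 from -0.30 to 0.22. Causes were not tested.

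The clones share numbers, but same-numbered clones did not deviate together (correlation 0.055). With clone number as a replicate block, 1390 probe sets, 1 member (Fas) and 4 wider-list genes passed, and the medians were 0.22, 0.16 and -0.04.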
